A study of Citrus maxima with 6 samples.

Results

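The genes described here are O-methyltransferases annotated in pomelo, followed in ripe pulp. They were taken from the deposited annotation as every gene whose name contains "O-methyltransferase", leaving out the homologs of certain enzymes of lignin synthesis by their best hit in Arabidopsis. The rule gave 14 of the 30123 annotated genes, and it used no expression value. RNA was sequenced from the ripe sarcocarp (pulp) of 2 cultivars with 3 biological repeats each. The red-sarcocarp cultivar was C. maxima Merr. var. Tubtim Siam and the white-sarcocarp cultivar was C. maxima (Burm.) Osbeck. Each repeat was mixed from the equatorial pulp of several ripe orchard fruits, and whether different repeats came from different trees is not given in the sources used here. Each pulp colour was represented by 1 cultivar, so a difference between the groups is a difference between these 2 cultivars at 1 stage.

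O-methyltransferases move a methyl group from S-adenosylmethionine (SAM) to a hydroxyl or carboxyl oxygen of another molecule. In plants the best known ones methylate lignin precursors, flavonoids, coumarins and indole compounds, which changes how reactive and how soluble these are. Citrus fruit is known for its methylated flavonoids, such as hesperidin and the polymethoxylated flavones of the peel. Which enzyme acts on which substrate cannot be read from a family annotation alone.

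By best Arabidopsis hit the 14 genes fell into 5 groups. The largest, with 9 genes, had the hit AT3G53140, annotated only as an O-methyltransferase family protein. The 9 genes are Cg2g011760, Cg2g011770, Cg3g003220, Cg5g019960, Cg5g025350, CgUng005520, CgUng020180, CgUng020190 and CgUng021470. Cg8g001110 and Cg9g009990 had the hit AT4G35160, which in Arabidopsis is an N-acetylserotonin O-methyltransferase of melatonin synthesis. Cg3g017710 had the hit AT1G21100 and Cg3g017740 the hit AT1G21130, which in Arabidopsis belong to the indole glucosinolate O-methyltransferases. Cg8g022710 had the hit AT5G59500, named as a protein C-terminal S-isoprenylcysteine carboxyl O-methyltransferase, an enzyme type that methylates the end of lipid-modified proteins and no small phenolic. Gene positions and sequences were not analysed here.

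Expression was deposited as FPKM (fragments per kilobase of gene, scaled to the mapped fragments of a library), which summed to between 812335 and 835575 per library with 15920 to 16250 genes above 0. Cultivars were compared on log2(FPKM + 0.1) with limma over the 14158 genes that reached a mean of 1 FPKM in either cultivar. Following the thresholds of the study, a gene was called when the log2 fold change reached 2 in either direction and the adjusted p was 0.01 or lower. A gene past the adjusted p alone is described as changed, and differences are given as red relative to white. The scale understates changes of genes with low FPKM.

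Of the 14 genes, 5 had an FPKM above 0 in any library, and the same 5 passed the filter on low values. Of these, 4 had the hit AT3G53140, and the other was Cg8g022710. The remaining 9 genes were listed at 0 in all 6 libraries, among them both AT4G35160 genes and both genes with indole glucosinolate hits. For 5 of these 9 the authors' mean normalized count over the 6 libraries, which comes from a separate count of reads, was 0 as well. It was 0.775 for Cg2g011760, 0.554 for Cg5g019960, 0.465 for Cg3g017710 and 0.383 for Cg3g003220, each less than 1 read per library on average. A listed 0 is not by itself a sign that no reads were present, since 11903 genes of the table had no FPKM in any library and for 2154 of these some reads were counted.

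In red-sarcocarp pomelo 3 members were lower by the adjusted p, and 1 of them was called. Among all tested genes 3.65% were called lower and 3.11% higher in red, while 14.1% were lower and 13.4% higher by the adjusted p alone. The 3 changed members were Cg2g011770, CgUng020190 and Cg5g025350, all with the hit AT3G53140. In each of the 3 every red library lay below every white library, which 28.3% of the tested genes showed (29.4% showed the reverse). The same 3 members passed looser thresholds of 1 for the log2 fold change and 0.05 for the adjusted p, which 9.18% of the tested genes passed with lower and 8.95% with higher values in red. In the other direction limma called or changed 0 members, and 0 had an unadjusted p below 0.05. In bulk pulp, fewer cells of a type and less RNA per cell cannot be told apart.

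Cg2g011770 was the most strongly expressed member, with a mean of 90.02 FPKM over the 6 libraries, above 87.8% of the tested genes. Its FPKM was 51.73, 57.27 and 60.33 in the red libraries and 123.44, 111.97 and 135.38 in the white libraries. The groups were far apart compared with their spread, the highest red value being well under the lowest white value. The means were 56.4 ± 4.36 FPKM in red and 124 ± 11.7 FPKM in white (SD, n = 3). The fit gave a log2 fold change of -1.13 (standard error SE 0.10, 95% interval -1.36 to -0.90, adjusted p = 0.000236 from limma), or 2.19-fold lower in red. The gene changed but stayed below the fold change threshold.

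CgUng020190 was next, with a mean of 55.7 FPKM. It had 28.85, 28.63 and 31.44 FPKM in the red libraries and 69.02, 84.24 and 91.77 FPKM in the white libraries. The red values were nearly level, whereas the white values varied more, with a coefficient of variation of 14.2% against 5.27% in red. The means were 29.6 ± 1.56 FPKM and 81.7 ± 11.6 FPKM (SD, n = 3). The log2 fold change of -1.45 (SE 0.12, 95% interval -1.72 to -1.18, adjusted p = 0.000169 from limma) corresponds to 2.73-fold lower expression in red. Of the members past the adjusted p, this was the one nearest to the fold change threshold from below.

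**Figure D1:**
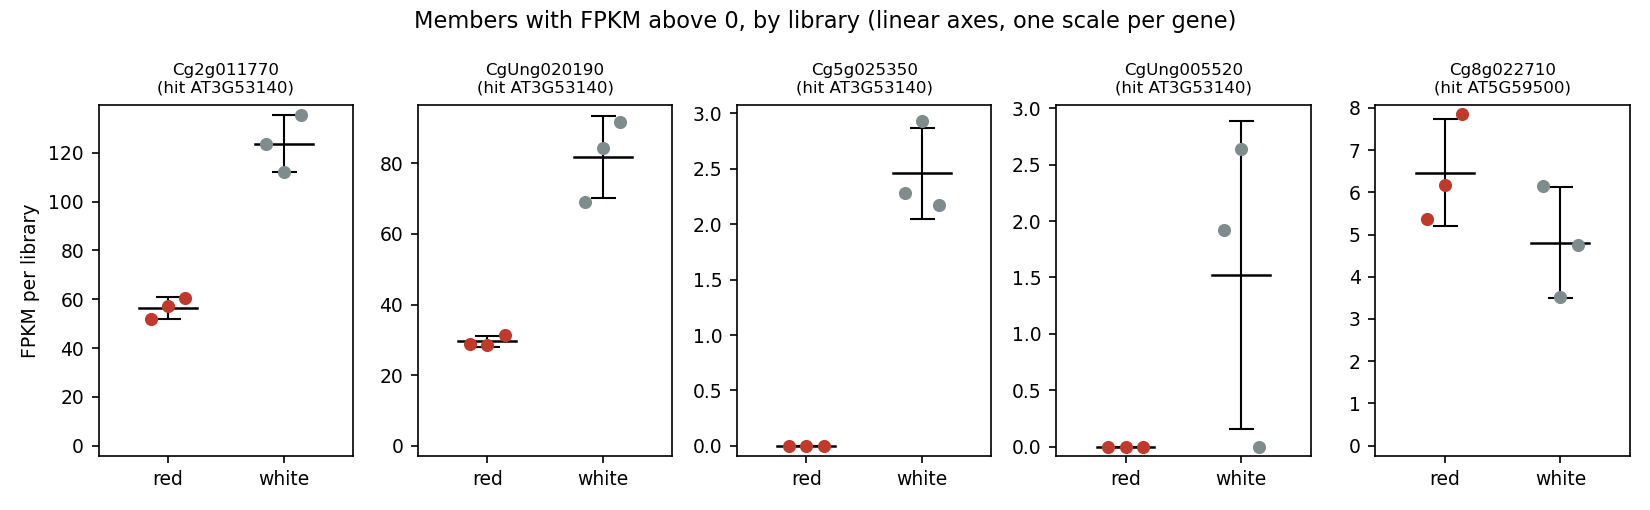
FPKM (linear vertical axes, a separate scale for each gene) of the 5 members with values above 0 in the 3 red and 3 white libraries. Points are libraries, the long line is the mean and the bars are 1 SD. Cg2g011770 and CgUng020190 separate the cultivars, Cg5g025350 is at 0 in red, CgUng005520 is at 0 in red and in 1 white library, and the values of Cg8g022710 overlap.

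These 2 genes carried most of the expression of the whole group. Together they had 80.58, 85.90 and 91.77 FPKM in the red libraries and 192.46, 196.21 and 227.15 FPKM in the white libraries, which was between 92.1% and 97.0% of the summed FPKM of the 14 genes. The sum was 2.38-fold lower in red (-1.25 on the log2 scale, SE 0.09, adjusted p = 0.000132 from limma), in a fit with both genes as 1 row that was added after seeing the data. The ratio of Cg2g011770 to CgUng020190 was 1.79, 2.0 and 1.92 in the red libraries and 1.79, 1.33 and 1.48 in the white libraries. The red ratios lay above the white ones (1.90 ± 0.104 against 1.53 ± 0.235, SD, n = 3), by a margin of less than 0.01 between red replicate 1 and white replicate 1. An exact two-sided permutation test gave p = 0.1, the smallest that 3 against 3 libraries allow.

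The counted reads and the FPKM of these 2 genes stood in different proportions. The authors' mean normalized count was 1102 for Cg2g011770, or 12.2 per FPKM, against a median of 31.0 per FPKM over the tested genes. For CgUng020190 it was 0, although its FPKM reached 91.77. Of the 14158 tested genes 142 (1.00%) had an FPKM that passed the filter and a mean normalized count of 0, and only 15 of these had a mean FPKM as high as that of CgUng020190 or higher, the gene itself included. Identifiers starting with CgUng were common among them, with 64 of the 142 genes but 359 of all tested genes. How reads that fit several places were handled in each count is not given in the sources used here. Whether CgUng020190 shares reads with Cg2g011770 or another gene was not tested, so the division of FPKM between them is uncertain. The sum of the 2 genes was lower in red. Reads shared with another gene would move this sum. As FPKM is scaled by gene length, the sum also depends on the division between the 2 genes unless their lengths are equal. Gene lengths were not analysed here. Cg2g011770 alone was lower too, but its FPKM would depend on the division of reads as well.

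**Figure D2:**
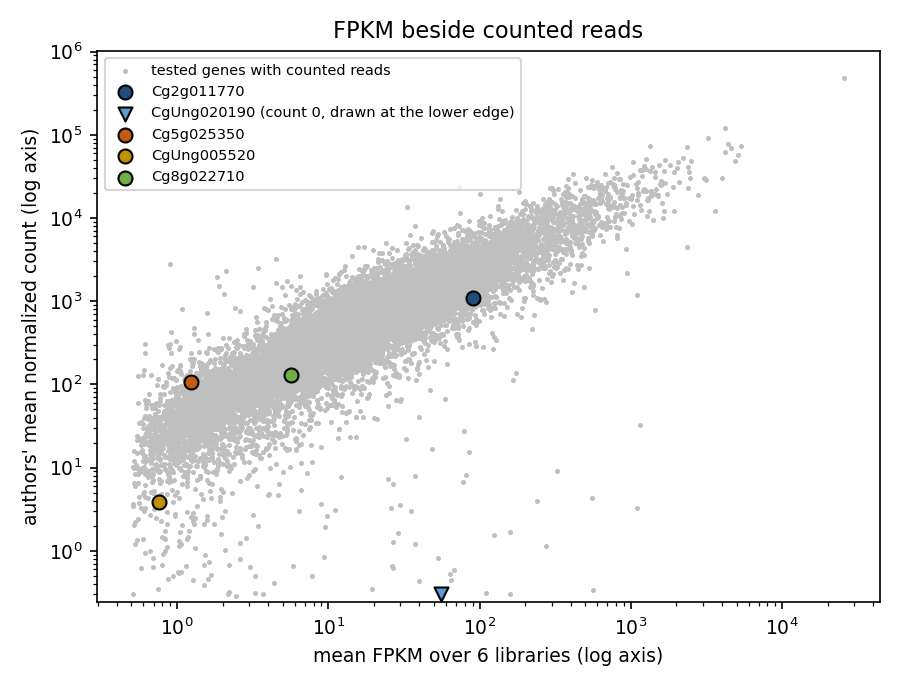
Mean FPKM over the 6 libraries (horizontal log axis) against the authors' mean normalized count (vertical log axis) for tested genes (grey) and the 5 members (coloured). CgUng020190 has a count of 0 and is drawn as a triangle at the lower edge, Cg5g025350 lies at the upper side of the cloud with 85.9 counts per FPKM, and CgUng005520 lies at its lower side with 5.12.

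Cg5g025350 was the only member called between the cultivars. Its FPKM was 0 in each red library, against 2.28, 2.93 and 2.17 FPKM in the white libraries and a white mean of 2.46 ± 0.411 FPKM (SD, n = 3). Its level was low, above only 5.69% of the tested genes, but alike in the 3 white libraries. It met the filter on low values only through white, the group where it was higher. The adjusted p was 0.000298 from limma, and with red listed at 0 no fold change can be stated. With a pseudocount of 1 the difference no longer reached the fold change threshold (-1.78 on that scale, adjusted p = 0.000321 from limma). The mean normalized count was 106, or 85.9 per FPKM, which was 2.77 times the median of the tested genes. As a mean over both cultivars, it does not show whether reads were counted in red.

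CgUng005520, with the same Arabidopsis hit, had 1.92, 2.64 and 0 FPKM in the white libraries and 0 in every red one. White replicate 3 was thus level with the red libraries, and the groups overlapped. The difference did not pass (adjusted p = 0.0938 from limma). The gene met the filter on low values only through the white libraries. Leaving out white replicate 3, the only white library at 0, removes the overlap by construction. The difference then passed both thresholds (adjusted p = 0.00266 from limma), and the number of called members was 2. The mean normalized count of CgUng005520 was 3.89 reads over the 6 libraries, or 5.12 per FPKM, so few reads were counted on this gene.

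Cg8g022710, the member annotated as a carboxyl O-methyltransferase of isoprenylated proteins, was the only one with a higher mean in red. It had 5.37, 6.17 and 7.85 FPKM in the red libraries and 6.16, 3.52 and 4.75 FPKM in the white libraries. The groups overlapped, since white replicate 1 lay above red replicate 1. The means were 6.46 ± 1.27 and 4.81 ± 1.32 FPKM (SD, n = 3). The log2 fold change of 0.44 (95% interval -0.13 to 1.00, adjusted p = 0.174 from limma) did not pass, and the interval leaves room for a change of up to about 1 on the log2 scale. Its mean normalized count of 129 gave 23.0 per FPKM.

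Per length the order of the members was thus the same in both cultivars for the 3 most expressed ones. The place of CgUng020190 in this order rests on FPKM alone, since its mean normalized count was 0. Cg2g011770 lay above CgUng020190, and both lay above Cg8g022710 in every library. Below these, Cg5g025350 and CgUng005520 could not be ordered in red, where both were listed at 0. In each white library Cg5g025350 lay above CgUng005520, although their ranges overlapped (2.17 to 2.93 against 0 to 2.64 FPKM). Summed over the 14 genes, the FPKM was 85.95, 92.07 and 99.62 in the red libraries and 202.82, 205.30 and 234.07 in the white libraries. The sum over the 9 genes with the hit AT3G53140 was 86.1 ± 5.60 FPKM in red and 209 ± 17.6 FPKM in white (SD, n = 3).

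**Figure D3:**
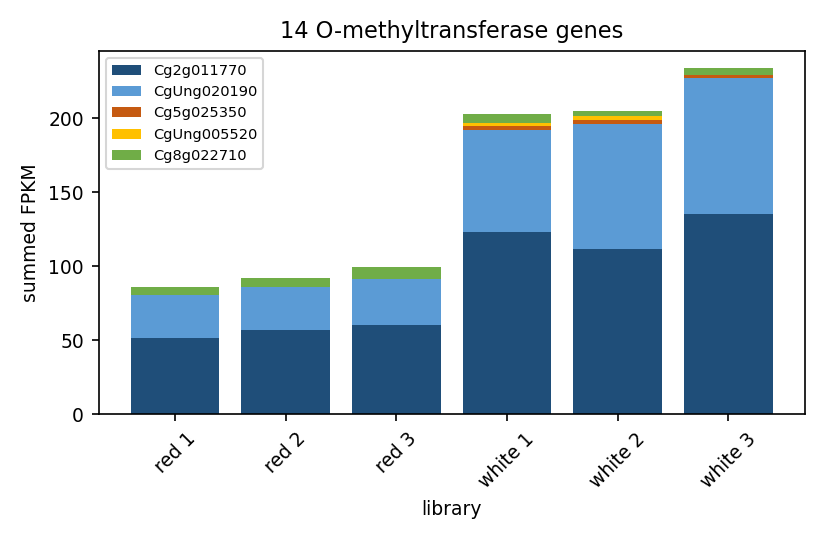
Summed FPKM per library (linear axis starting at 0) of the 14 genes, stacked by member. Cg2g011770 and CgUng020190 fill most of each bar, with totals of 85.95 to 99.62 FPKM in red and 202.82 to 234.07 FPKM in white.

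All these enzymes draw on SAM, which is made by SAM synthetase. The S-adenosylhomocysteine left after methylation is cleared by S-adenosylhomocysteine hydrolase and adenosine kinase, while methionine synthase and methylenetetrahydrofolate reductase renew methionine. Of the 69 genes with a hit in this list 11 were tested. By limma 0 were called, 1 was higher and 1 lower in red by the adjusted p alone, and at an unadjusted p below 0.05 the numbers were 1 higher and 7 lower, against 27.2% and 26.6% of all tested genes. In 7 every red library lay below every white library and in 1 above (28.3% and 29.4% of all tested genes). Their median log2 fold change was -0.27, against 0.02 over all tested genes. The lower gene was the SAM synthetase Cg5g039100, with means of 594 ± 43.0 (red) and 986 ± 69.9 FPKM (white, SD, n = 3), a difference of -0.73 on the log2 scale (SE 0.10, adjusted p = 0.00126 by limma). The higher gene was the methionine synthase Cg2g005780, with 37.5 ± 1.16 against 20.1 ± 0.547 FPKM (SD, n = 3), a difference of 0.90 on the log2 scale (SE 0.08, adjusted p = 0.000201 by limma). The most expressed gene of the list, the S-adenosylhomocysteine hydrolase Cg6g014220, had 844 ± 58.4 and 815 ± 18.1 FPKM (SD, n = 3), which differ by 0.05 on the log2 scale (95% interval -0.16 to 0.26).

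**Figure D4:**
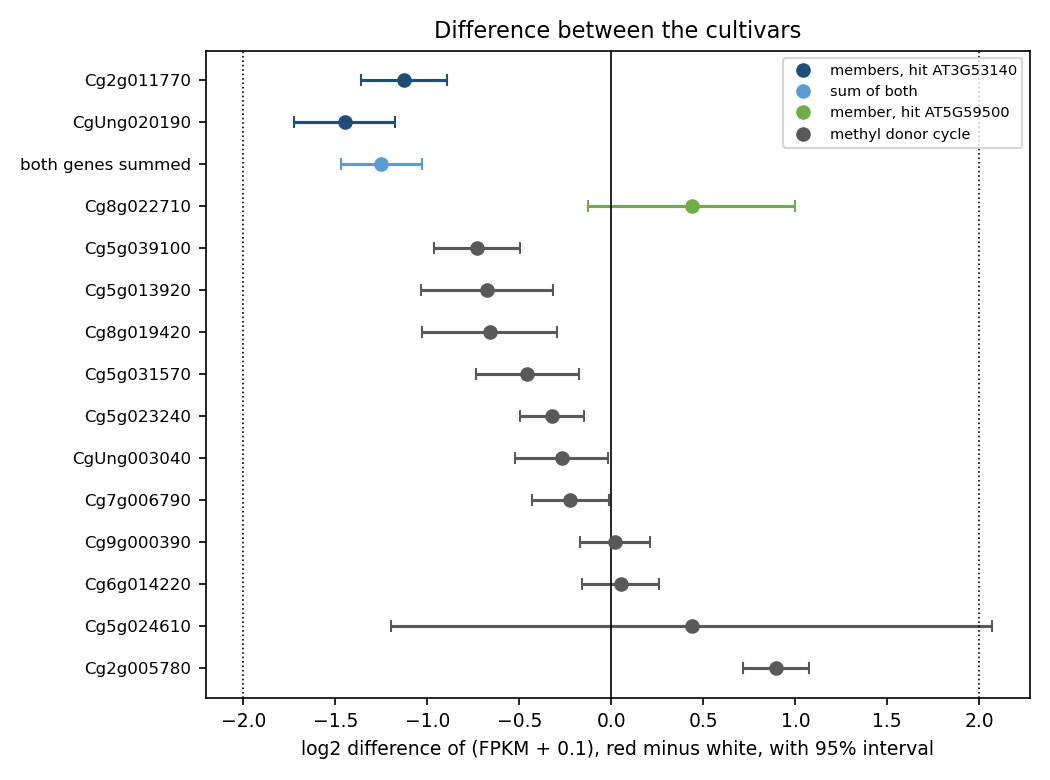
Log2 difference of FPKM + 0.1, red minus white, with its 95% interval from limma (horizontal axis) for members and methyl donor genes (rows) with values above 0 in both cultivars. Dotted lines mark the fold change threshold of 2. Cg2g011770 and CgUng020190 lie at -1.13 and -1.45, and the methyl donor genes between -0.73 and 0.90.

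The enzymes that make hydroxylated phenylpropanoids and flavonoids, among the usual substrates of O-methyltransferases, changed in both directions. Of 52 genes with a hit in the list 23 were tested. By limma 4 were called higher and 2 lower, against 3.11% and 3.65% of all tested genes, and by the adjusted p alone 6 were higher and 5 lower, against 13.4% and 14.1%. In 10 the red libraries all lay above the white ones and in 7 all below, against 29.4% and 28.3%. The median log2 fold change of the list was 0.81, against 0.02 over all tested genes. The called higher genes were Cg6g001740 (phenylalanine ammonia-lyase hit, 3.71 ± 1.11 against 0.200 ± 0.250 FPKM), Cg4g024070 (hydroxycinnamoyl transferase hit, 3.93 ± 0.680 against 0.277 ± 0.108 FPKM), Cg1g005130 (ferulate 5-hydroxylase hit, 5.51 ± 2.15 against 1.27 ± 0.590 FPKM, SD, n = 3) and Cg5g007630 (flavonoid 3'-hydroxylase hit, 2.56, 3.81 and 2.55 FPKM in red and listed at 0 in white). The lower ones, Cg2g025640 and Cg3g010740, have hydroxycinnamoyl transferase hits too. The most expressed gene, Cg1g016330, with the hit of caffeoyl shikimate esterase, had 267 ± 33.5 against 538 ± 18.8 FPKM (SD, n = 3), a difference of -1.02 on the log2 scale (SE 0.11, adjusted p = 0.000471 by limma). Next came Cg5g011190 (flavonoid 3'-hydroxylase hit), higher in red but just outside the adjusted p (302 ± 139 against 108 ± 17.5 FPKM, SD, n = 3, adjusted p = 0.01001 by limma). Cg6g001770 (phenylalanine ammonia-lyase hit) was higher by the adjusted p alone (39.4 ± 3.27 against 11.4 ± 2.46 FPKM, SD, n = 3, adjusted p = 0.000234 by limma). With a pseudocount of 1 none of the 23 was called, and 3 were without red replicate 3 or without white replicate 1.

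Genes of pulp function were strongly expressed, the 8 genes with hits to a vacuolar proton pyrophosphatase, the AHA10 proton pump and sucrose phosphate synthase summing to 826 to 915 FPKM in red and 796 to 817 FPKM in white. Of the 6 tested, the pyrophosphatase Cg2g032380 was called higher in red (3.27 ± 1.06 against 0.277 ± 0.163 FPKM, SD, n = 3, adjusted p = 0.00174 by limma), and the AHA10 gene Cg1g013430 was higher by the adjusted p alone (249.6 ± 74.2 against 120.2 ± 4.72 FPKM, SD, n = 3, adjusted p = 0.00574 by limma). The most expressed of the 6, the pyrophosphatase Cg4g019740, was lower in red without passing (301 ± 38.9 against 394 ± 15.0 FPKM, SD, n = 3, adjusted p = 0.0197 by limma). In 3 of the 6 every red library lay above every white one and in 2 below, against 29.4% and 28.3% of all tested genes. The 3 green tissue genes summed to 13.8 to 23.1 FPKM in red and 17.4 to 24.1 FPKM in white, most of it from the photosystem I antenna gene Cg7g006420. Neither of the 2 tested passed, and Cg7g006420 overlapped between the cultivars (17.7 ± 4.38 against 18.3 ± 4.06 FPKM, SD, n = 3). The Rubisco small subunit gene Cg6g019580 had every red library below every white one, as did the changed members and 28.3% of all tested genes (0.423 ± 0.520 against 1.74 ± 0.546 FPKM, SD, n = 3, adjusted p = 0.0391 by limma). The 4 genes for cellulose synthases of lignifying vessels summed to 0.04 to 0.06 FPKM in red and 1.47 to 3.87 FPKM in white. Only Cg4g023980 was tested, and it was called lower in red (0.03 ± 0.01 against 1.18 ± 0.566 FPKM, SD, n = 3, adjusted p = 0.00362 by limma). It met the filter on low values only through white. One of the 4 was listed at 0 in all libraries, and Cg2g043600, the gene with the CESA8 hit, was listed at 0 in every red library. The 5 seed genes summed to 5.03 to 24.8 FPKM in red and 0.09 to 0.25 FPKM in white. The 2 tested, Cg9g008230 and Cg9g008240, with the hit of a cruciferin storage protein, were called higher in red and stood highest in red replicate 3 (10.56 and 12.27 FPKM). Both met the filter on low values only through red. Of all tested genes 3.11% were called higher in red and 3.65% lower. The part of vessel, green or seed tissue in the differences of the O-methyltransferases was not tested.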

How the data were processed

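The authors trimmed the reads with Trimmomatic, mapped them to the C. maxima genome with STAR 2.7.1a, and obtained FPKM with RSEM 1.3.1. The deposited FPKM are given per gene and library to 2 decimals. The mean normalized count (a signal averaged by the authors over the 6 libraries) came from featureCounts 2.0.1 and DESeq2. The authors' fold changes, test statistics and p-values in the same table were not used, nor was their list of DEGs. FPKM keeps no read depth, so precision rests on the 3 replicates. No per-library column was left out (0 unused columns).

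Groups came from the sample labels. The 14158 genes with a mean FPKM of at least 1 in a cultivar were fitted with limma 3.58.1 (R 4.3.3) on the log2(FPKM + 0.1) scale (cultivar as the only term, empirical Bayes with a mean-variance trend), with Benjamini-Hochberg adjustment over all of them. The fit was tested on simulated data. Summaries used Python 3.11.15 with pandas 2.3.3 and SciPy 1.17.1. P-values set the difference between the cultivars against the spread between these libraries, moderated over all tested genes. They do not cover other cultivars.

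Named were members called, changed, or with a mean FPKM of at least 10, those nearest a threshold, expressed members sharing a called member's Arabidopsis hit, and in the other lists the called genes and the most expressed one. Named after their values were seen were the other tested members, genes of other lists changed but not called, Cg5g011190 and some tissue genes. Members and lists were chosen with earlier results of these data known. Alternatives were other pseudocounts, filters, scalings, moderation, thresholds, a replicate block and leaving out each library. The homologs that the rule leaves out are not reported here.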

Additional observations from a re-analysis of the deposited data

How the results depend on the processing

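The number of called members was 1 and rose to 3 with a log2 fold change of at least 1 and an adjusted p of at most 0.05, all 3 lower in red, and was 0 with a pseudocount of 1. With each library left out it lay between 1 and 2. The 2 came without white replicate 3, the only white library with CgUng005520 at 0 (log2 value then -4.56). Changed members numbered 3, and between 3 and 4 with a library left out. Members whose groups did not overlap numbered 3, and between 3 and 4 with a library left out. Smaller groups separate more easily, and the share over all tested genes was not computed for these settings. Cg2g011770 stayed between -1.20 and -1.06 and CgUng020190 between -1.57 and -1.36, past the adjusted p under each alternative in which they were fitted. Cg8g022710 stayed between 0.23 and 0.63 and did not pass in any (adjusted p 0.0754 to 0.440 from limma). CgUng005520 was not tested without white replicate 2, with a mean FPKM of at least 1 over all libraries or with a mean normalized count of at least 10. Called genes of the phenylpropanoid list numbered 6, 0 with a pseudocount of 1, and 3 to 5 with a library left out. The median of all tested genes moved by less than 0.1 under other scalings. Same-numbered red and white libraries did not deviate together (r between -0.04 and 0.03 for the 3 pairs), and with a replicate block 1 member was called and 3 changed. Chosen after seeing the data were the summed pair and a mean normalized count of at least 10. With the pair as 1 row, that row and Cg5g025350 were the changed ones. The count filter removed CgUng020190 and left 2 changed members. FPKM without depth limits what can be said of the 9 members listed at 0.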
